A study of Mus musculus with 4 samples.

Results

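The miR-29 family consists of miR-29a, miR-29b and miR-29c, short RNAs that repress messenger RNAs. Their 3 probes, mmu-miR-29a, mmu-miR-29b and mmu-miR-29c, were counted in 2 samples of normal mouse liver and 2 of mouse liver tumour, on an assay that counts single probe molecules without amplification. They were chosen by name among the 566 mouse miRNA probes of the assay (618 probes in all), and their names give no arm. Per the labels, the mice were NF2fl/fl females, which carry floxed alleles of Nf2, the gene for the tumour suppressor merlin. They received either PBS or AAV2/8-Cre, a virus whose Cre recombinase removes Nf2 in hepatocytes, and their livers were inspected 50 weeks later. The tumours were dissected from the liver, so a tumour sample can also hold cells in which Cre did not act. The labels name 3 mice without saying how they were divided, and they tie neither the normal samples to PBS nor the replicates of a group to different animals. The p-values therefore reflect the spread of these samples only, and that spread may be technical. The question addressed was whether the family differs between normal liver and Nf2-deleted liver tumour.

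The miR-29 family is known for repressing genes of the extracellular matrix, among them the fibrillar collagens Col1a1, Col1a2 and Col3a1, elastin and fibrillin. In liver it is made by hepatocytes and by hepatic stellate cells, the main collagen producers of the organ, and it is known to decline when stellate cells are activated by TGF-beta. It also represses the DNA methyltransferases Dnmt3a and Dnmt3b and the survival factor Mcl1. No collagen or other target was among the 4 messenger RNA probes of the assay, so repression itself was not measured here.

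The mature sequences are shown because they explain why the 3 miRNAs form a family and how alike the measured molecules are. They are given 5′ to 3′ from RefSeq (GRCm38.p6), with the seed (bases 2 to 8), the stretch that pairs with targets, in capitals.
miR-29a: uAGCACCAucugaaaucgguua
miR-29b: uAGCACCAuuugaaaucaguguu
miR-29c: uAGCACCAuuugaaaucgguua
All 3 members matched an entry for the 3p arm and share the seed AGCACCA. Among 1679 named mature mouse miRNAs of the table, these 3 were the ones with this seed. Counted from 1 at the 5′ end, miR-29a and miR-29c differed at 1 of 22 bases, C10U (miR-29a first). MiR-29c and miR-29b differed at 3 of 22 aligned bases, G18A, U21G and A22U (miR-29c first), and miR-29b is 1 base longer. MiR-29b ends in AGUGUU, a motif known from human cells to direct this miRNA to the nucleus. The motif was found in 12 of the 1679 mature miRNAs (0.715%), on the miRNA strand as written, and 2 of them end in it. With a single internal base between miR-29a and miR-29c, the extent to which their probes read each other's target was not tested, and the separation of these members is uncertain to that extent.

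The family is encoded at 2 loci. Mir29a (chromosome 6, 31062660 to 31062747, minus strand) lies 275 bases from Mir29b-1 (chromosome 6, 31063023 to 31063093, minus strand). Mir29b-2 (chromosome 1, 195037040 to 195037120, plus strand) lies 426 bases from Mir29c (chromosome 1, 195037547 to 195037634, plus strand), and both overlap the long noncoding RNA gene A330023F24Rik. The pair of miR-29b hairpins is shown to make plain that their mature product, in capitals, is identical.
Mir29b-1: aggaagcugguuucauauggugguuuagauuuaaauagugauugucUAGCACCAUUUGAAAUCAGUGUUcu
Mir29b-2: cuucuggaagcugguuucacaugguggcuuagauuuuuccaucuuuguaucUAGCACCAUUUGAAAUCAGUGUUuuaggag
The miR-29b probe therefore sums 2 loci, whereas miR-29a reads the chromosome 6 locus and miR-29c the chromosome 1 locus.

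The deposited values are probe counts that the authors multiplied by 1 factor per sample, and the counts could be recovered. Recovered counts over the scaled probes ranged from 63744 to 247020 per sample and were higher in both tumours than in both normal livers. Spiked positive controls, summed over their 6 probes, were also higher in the tumours (13620 and 10859) than in the normal livers (6726 and 5924). The miR-29 probes were well measured. Each member had at least 661 recovered counts in each sample, against detection thresholds of 11.2 to 18.3 counts (mean plus 2 SD of the negative controls of that sample). MiR-29a ranked 5th among mouse miRNA probes by count in each normal liver, and 8th and 14th in liver tumours 1 and 2.

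In the deposited scaling all 3 members had lower values in the tumours than in the normal livers, and the fall of miR-29b passed the test. The lower direction was common there, since 211 of the 276 miRNAs kept for the test (76.4%) had a negative difference. MiR-29a (mmu-miR-29a) read 3717 and 3685 scaled counts in normal livers 1 and 2 and 2615 and 1877 in tumours 1 and 2. The normal livers nearly coincided while the tumours lay apart. The means were 3701 ± 22.0 and 2246 ± 522 (SD, n = 2 per group). The log2 difference, tumour minus normal on log2(value + 1), was -0.74 (SE 0.28, 95% interval -1.42 to -0.060), which did not pass limma's test (adjusted p = 0.0637).

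MiR-29b (mmu-miR-29b) read 1975 and 2044 scaled counts in normal liver against 1207 and 744 in tumour. The second tumour was the lowest sample. MiR-29b fell from 2009 ± 48.5 to 976 ± 328 (SD, n = 2), a log2 difference of -1.08 (SE 0.32, 95% interval -1.85 to -0.32, limma adjusted p = 0.0272), or 2.12-fold. The call was lost without normal liver replicate 1 (adjusted p = 0.119, with 27.5% of all tested miRNAs still called lower), normal liver replicate 2 (adjusted p = 0.143, 17%) or liver tumour replicate 2 (adjusted p = 0.0951, 46%). Without liver tumour replicate 1 it held (adjusted p = 0.0118, 42%), and miR-29a was then called too (adjusted p = 0.0428).

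MiR-29c (mmu-miR-29c) read 1518 scaled counts in each normal liver and 971 and 1009 in the tumours. Both groups were tight, and the second tumour was the higher of the tumours, unlike for the other members. The means were 1518 ± 0.375 and 990.3 ± 26.7 (SD, n = 2), a log2 difference of -0.62 (SE 0.25, 95% interval -1.22 to -0.017, limma adjusted p = 0.0742), which did not pass the test.

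Of the 3 members, 1 was called lower and 0 higher (3 at an unadjusted p under 0.05, all negative). Over the 276 miRNAs kept for the test, 46.7% were called lower and 7.97% higher, so a single lower call among 3 members is no more than the background share. The median of the members was -0.74, against -0.90 over all kept miRNAs. Among the kept miRNAs, 118 had a more negative difference than miR-29b, 155 than miR-29a and 163 than miR-29c. That position depended on the setting. The median of the members was below that of the kept miRNAs with the mean negative control subtracted (-0.74 against -0.45), with a pseudocount of 30 (-0.73 against -0.47) and after quantile normalization (-0.81 against -0.021). Scaled background differed between the groups, with a mean negative control of 18.4 and 17.6 in normal liver against 2.96 and 6.94 in tumour, and its part in the differences of the kept miRNAs was not tested. Among the 136 miRNAs detected in all 4 samples, all 3 members were called lower (limma adjusted p = 0.0411, 0.0218 and 0.036 for miR-29a, miR-29b and miR-29c), beside 36.8% of those miRNAs called lower, 12.5% higher and a median of -0.31. With no filter, over 566 miRNAs, miR-29b alone was called, beside 48.8% called lower. All 3 members were called lower with a pseudocount of 10 (51.8% of kept miRNAs called lower), a pseudocount of 30 (48.6%) and a variance trend (51.8%). With the mean negative control subtracted, limma called 0 members (1 at an unadjusted p under 0.05), beside 1.81% called lower.

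**Figure D1:**
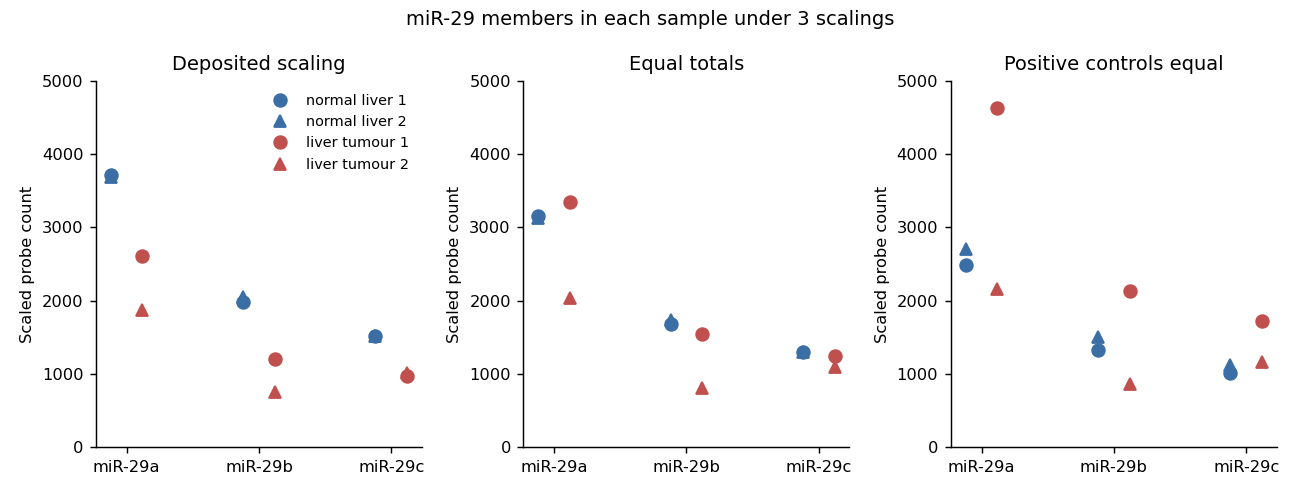
Scaled probe counts (y axis, linear) of miR-29a, miR-29b and miR-29c in each of the 4 samples, blue for normal liver and red for tumour, circles for replicate 1 and triangles for replicate 2. In the deposited scaling (left) both tumours lie below both normal livers for all 3 members, with equal totals (middle) miR-29a in tumour 1 lies above the normal livers, and with the positive controls set equal (right) tumour 1 lies above them for all 3 members.

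The size and direction of the difference depended on how the samples were scaled. Recovered counts of miR-29a were 1782 and 1605 in normal liver against 6620 and 2074 in tumour, before any scaling. Those of miR-29b were 947 and 890 in normal liver against 3056 and 822 in tumour, and those of miR-29c 728 and 661 against 2459 and 1115. Unscaled counts in tumour 1 were thus the highest for each member, in the sample with the highest total and the highest positive controls.

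With the spiked positive controls set equal, tumour 1 stood above both normal livers for all 3 members. MiR-29a then read 2484 and 2711 in normal liver against 4629 and 2157 in tumour, so that the tumours fell on either side of the normal livers. MiR-29b read 1320 and 1503 against 2137 and 855, with the same split. MiR-29c read 1015 and 1116 against 1719 and 1160, with both tumours above. The log2 differences were 0.28, -0.060 and 0.41, and limma called 0 members (0 at an unadjusted p under 0.05), beside 3.62% of kept miRNAs called lower and 15.9% higher.

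Across 11 combinations of scaling and test other than the deposited one, miR-29b had a negative difference in 11, from -1.16 to -0.060, and was called lower in 1. MiR-29a had a negative difference in 7 and a positive one in 4 (-0.83 to 0.28), and miR-29c likewise (-0.69 to 0.41), with 0 calls for either. The combinations over the 136 miRNAs detected in all 4 samples were chosen after seeing the data. They gave negative differences for every member and hold the 1 call of miR-29b. In the other 7, miR-29b was called in 0, and miR-29a and miR-29c were positive in 4. Quantile normalization gave the members the same differences over either set of miRNAs. The positive differences came under scaling to the positive controls, under equal medians over the 276 kept miRNAs, and in edgeR and DESeq2 on recovered counts of those 276. EdgeR there gave 0.14 for miR-29a, -0.18 for miR-29b and 0.24 for miR-29c and called 0 members (0 at an unadjusted p under 0.05), with 14.1% of kept miRNAs called lower and 25.7% higher. DESeq2 also called 0 members (0 at an unadjusted p under 0.05), with 4.71% called lower and 21.4% higher. Limma called 0 members with equal medians (0 at an unadjusted p under 0.05, 18.1% called lower and 21.4% higher), equal totals (0, 26.8% and 12.3%) and quantile normalization (1, 4.71% and 6.52%). The set of miRNAs used for scaling mattered. When edgeR was run on the 136 miRNAs detected in all 4 samples, the 3 differences were -0.37, -0.69 and -0.27, and 0 members were called (1, miR-29b, at an unadjusted p under 0.05). In that fit 22.8% of the miRNAs were called lower and 21.3% higher, in DESeq2 on the same 136 miRNAs 19.9% each way, and in limma after quantile normalization over them 15.4% and 17.6%. With medians set equal over the 136, the differences were -0.66, -1.0 and -0.54 and miR-29b was called (limma adjusted p = 0.0211), with 33.8% called lower and 13.2% higher. Scaling to the 4 messenger RNA probes gave -0.81, -1.16 and -0.69, with 0 members called by limma (1, miR-29b, at an unadjusted p under 0.05) and 34.4% of kept miRNAs called lower and 3.99% higher.

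**Figure D2:**
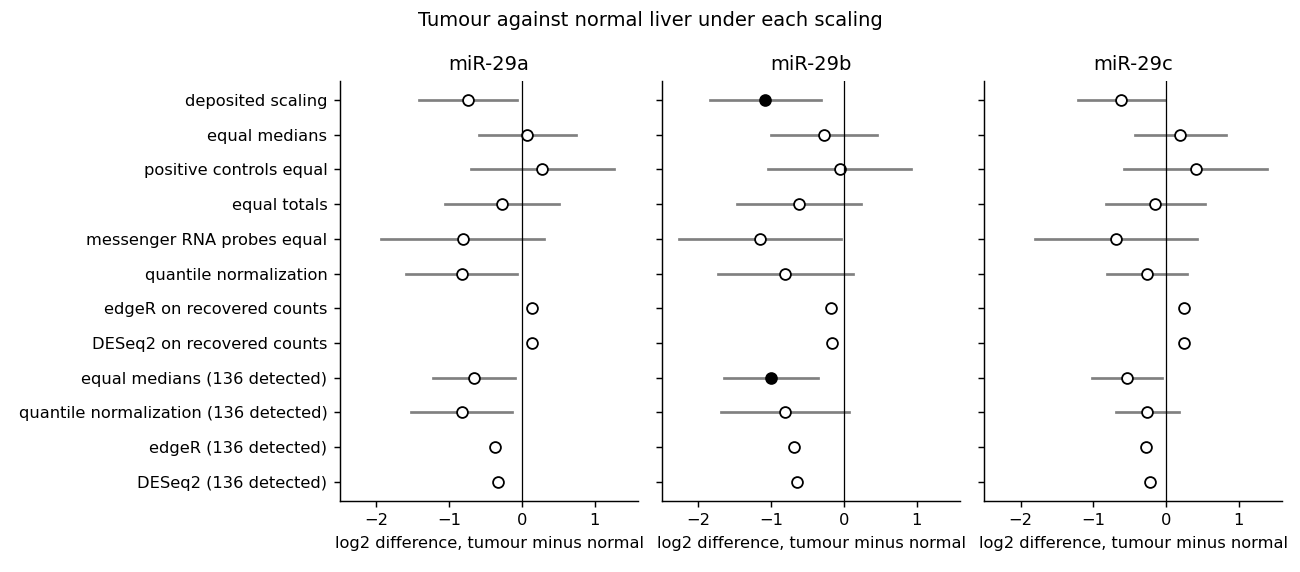
Log2 difference, tumour minus normal liver (x axis), of each member under the deposited scaling and 11 other combinations of scaling and test (y axis). Filled points passed an adjusted p of 0.05, lines are limma's 95% intervals, and edgeR and DESeq2 are drawn without intervals. MiR-29b lies left of 0 in every combination drawn, and miR-29a and miR-29c cross it in 4. The combinations over the 136 detected miRNAs were chosen after seeing the data.

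The share of all miRNA counts taken by the family needs no scaling between samples. The 3 members together took 5.06% of mouse miRNA counts in normal liver 1 (95% Wilson interval 4.90 to 5.23), 5.09% in normal liver 2 (4.92 to 5.26), 5.06% in tumour 1 (4.97 to 5.15) and 3.24% in tumour 2 (3.14 to 3.34). Tumour 2 stood below the other samples, whereas tumour 1 could not be told from the normal livers by counting error. These intervals cover counting error only and not the spread between animals. The equality of tumour 1 with the normal livers depended on the denominator, and the shares also shifted with the background. With the most abundant probes, miR-720 and miR-122, left out of the total, the family took 7.89% and 8.08% in the normal livers, 6.52% in tumour 1 and 4.83% in tumour 2, so that both tumours were lower. With the mean negative control subtracted from each count, it took 5.35% and 5.38% in the normal livers, 5.14% in tumour 1 and 3.32% in tumour 2. Both tumours were again lower, but no interval was computed there, so whether tumour 1 differed beyond counting error was not tested. Within bulk tissue, fewer cells that make a miRNA and less of it per cell cannot be told apart.

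Within the family, the part of miR-29b was lower in both tumours than in both normal livers, and tumour 2 stood farthest apart. Probes can differ in efficiency, so shares are compared between samples for the same member and not between members. MiR-29a made up 51.5% and 50.9% of the summed miR-29 counts in the normal livers, 54.6% in tumour 1 (95% Wilson interval 53.7 to 55.4, above those of both normal livers) and 51.7% in tumour 2. MiR-29b made up 27.4% and 28.2% in the normal livers, 25.2% in tumour 1 (95% Wilson interval 24.4 to 25.96) and 20.5% in tumour 2 (19.3 to 21.8). The interval of tumour 1 lay below that of normal liver 2 (26.7 to 29.8) and overlapped that of normal liver 1 (25.9 to 28.9), and the interval of tumour 2 overlapped that of no other sample. MiR-29c made up 21.1% and 20.9% in the normal livers, 20.3% in tumour 1 and 27.8% in tumour 2 (26.4 to 29.2), again outside the intervals of the other samples. The count of miR-29c was below that of miR-29b in both normal livers (ratios 0.769 and 0.743) and in tumour 1 (0.805), and above it in tumour 2 (1.36).

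**Figure D3:**
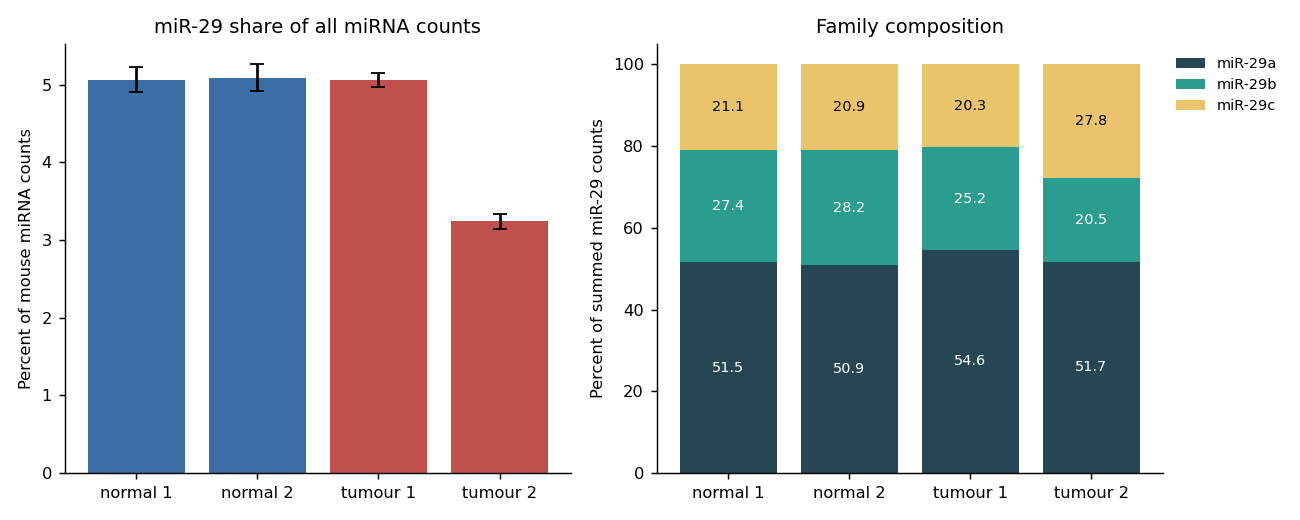
Left, percent of all mouse miRNA counts taken by the 3 members in each sample, with 95% Wilson intervals for counting error. Right, percent of the summed miR-29 counts taken by each member. Tumour 2 has the lowest share on the left, 3.24%, and on the right the smallest miR-29b part, 20.5%, and the largest miR-29c part, 27.8%.

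None of the 3 ratios between members passed the test as a difference between the groups (0 at an unadjusted p under 0.05). Ratios of members within a sample were tested with limma as the log2 ratio of every other kept miRNA to the same reference member. MiR-29b relative to miR-29a had a log2 ratio of -0.91 and -0.85 in normal liver against -1.11 and -1.33 in tumour. The difference of -0.34 (SE 0.40, 95% interval -1.18 to 0.50) did not pass limma's test (adjusted p = 0.526). Of the 275 ratios to miR-29a, 10.5% were called lower and 12% higher. MiR-29c relative to miR-29a went from -1.29 and -1.28 to -1.43 and -0.89, with the tumours on either side of the normal livers (difference 0.12, 95% interval -0.73 to 0.98, adjusted p = 0.827). MiR-29c relative to miR-29b went from -0.38 and -0.43 to -0.31 and 0.44 (difference 0.47, 95% interval -0.57 to 1.50, adjusted p = 0.548), with 12.4% of ratios to miR-29b called higher and 1.82% lower. That last difference was 0.84 without tumour 1 and 0.091 without tumour 2. The intervals reach more than 1 log2 unit in at least 1 direction for miR-29b against miR-29a and for miR-29c against miR-29b, so they leave room for unequal changes of that size.

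In the deposited scaling all 3 members were nearly equal in the normal livers, and miR-29a and miR-29b were further apart in the tumours. The normal livers differed by 0.012 (miR-29a), -0.049 (miR-29b) and 0.00050 (miR-29c) log2 units, replicate 1 minus replicate 2. Of the 136 miRNAs detected in all 4 samples, 133 differed more between the normal livers than miR-29a, 120 more than miR-29b and 135 more than miR-29c (median absolute difference 0.21). Between the tumours, miR-29a was 1.39-fold and miR-29b 1.62-fold higher in replicate 1 in the deposited scaling. Of the 136 miRNAs, 20 differed more between the tumours than miR-29b and 39 more than miR-29a (median absolute difference 0.27). MiR-29c differed by -0.055 log2 units, and 117 of the 136 differed more.

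The family was also set against a hepatocyte and a mesenchymal miRNA of the same sample, in ratios that need no scaling. MiR-122 is the dominant miRNA of hepatocytes. The count of miR-29a was 0.152 and 0.127 times that of miR-122 in normal liver against 0.209 and 0.115 times in tumour, so the tumours enclosed the normal livers. MiR-29b was at 0.0805 and 0.0702 times miR-122 against 0.0966 and 0.0454, with the same split, and miR-29c at 0.0619 and 0.0522 against 0.0777 and 0.0616. The log2 differences relative to miR-122 were 0.16 (95% interval -0.72 to 1.04, limma adjusted p = 0.815) for miR-29a, -0.18 (-1.06 to 0.70, 0.79) for miR-29b and 0.28 (-0.60 to 1.17, 0.657) for miR-29c. Of these 3 ratios 0 were called (0 at an unadjusted p under 0.05), beside 9.45% of the 275 ratios to miR-122 called lower and 17.8% higher. Without tumour 1 the miR-29a difference was -0.27, and without tumour 2 that of miR-29b was 0.36, each opposite in sign to the value over all samples.

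MiR-199a-3p, abundant in hepatic stellate cells and other mesenchymal cells, rose in the tumours (log2 difference 1.63, limma adjusted p = 0.00964), and relative to it all 3 members fell. In the deposited scaling it does not stand for every mesenchymal marker of the list, since miR-145 (0.14), miR-143 (0.12) and miR-214 (-0.085) did not pass the test. EdgeR on recovered counts called miR-145 (1.01) and miR-143 (1.06) higher, beside 25.7% of kept miRNAs, but not miR-214 (0.74). Recovered counts of miR-199a-3p were 105 and 88 in normal liver against 2232 and 532 in tumour. MiR-29a was counted 17.0 and 18.2 times as often as miR-199a-3p in normal liver against 2.97 and 3.90 times in tumour. For miR-29b the ratios were 9.02 and 10.1 against 1.37 and 1.55, and for miR-29c 6.93 and 7.51 against 1.10 and 2.10. Each member's groups lay far apart. The log2 differences were -2.37 (SE 0.60, limma adjusted p = 0.000153) for miR-29a, -2.71 (adjusted p = 1.68e-05) for miR-29b and -2.24 (adjusted p = 0.00033) for miR-29c, and each kept its call without each of the 4 samples in turn. Of all 275 ratios to miR-199a-3p, however, 87.6% were called lower and 0.727% higher, so the members' calls are near the background share. That share was 67.3% and 64.7% without normal liver 1 and 2 and 83.6% and 96.4% without tumour 1 and 2. All ratios share the 4 values of their reference, so their errors are not independent across miRNAs and these p-values are too small.

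**Figure D4:**
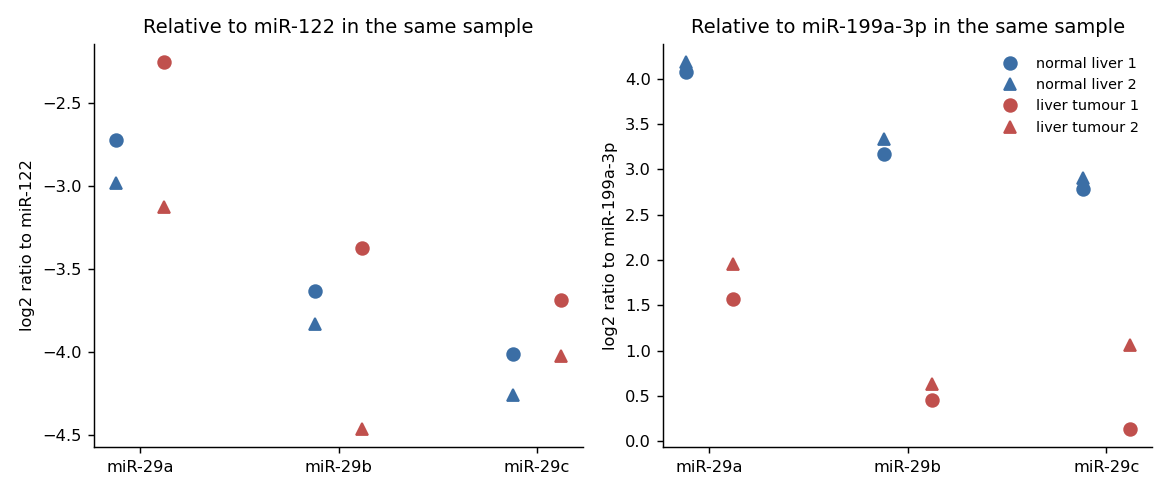
Log2 ratio of each member to miR-122 (left) and to miR-199a-3p (right) in the same sample, blue for normal liver and red for tumour, circles for replicate 1 and triangles for replicate 2. On the left the tumours of miR-29a and miR-29b lie on either side of the normal livers, and on the right both tumours lie below both normal livers for all 3 members.

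Markers of both cell types moved between the groups. The 8 hepatocyte markers made up 23.3% and 26.0% of all counts in normal liver against 16.5% and 17.8% in tumour. The 6 stellate and mesenchymal markers with a probe took 1.79% and 1.55% in normal liver against 6.19% and 3.93% in tumour, and the 5 bile duct epithelial markers 0.145% and 0.148% against 1.37% and 1.13%. A few members carried these sums. Of the 6 stellate and mesenchymal markers limma called 3 higher in the deposited scaling, miR-199a-5p (2.16), miR-199a-3p (1.63) and miR-125b-5p (1.26), and 0 lower. Of the 4 bile duct markers kept, it called miR-429 (3.78), miR-200a (3.05) and miR-200b (2.59) higher and miR-200c (-1.31) lower. Over all kept miRNAs 7.97% were called higher there and 46.7% lower. MiR-200c had 17 and 9 recovered counts in normal livers 1 and 2 and 33 and 9 in tumours 1 and 2. Only the count of tumour 1 passed the detection threshold of its sample (17.6 counts). MiR-429, with 7 and 9 recovered counts, was below the threshold in both normal livers. EdgeR called 5 of the 6 and 3 of the 4 higher, beside 25.7% of kept miRNAs. With the positive controls set equal, limma called 3 of the 6 and 3 of the 4 higher, beside 15.9%. Both fits called 0 of these markers lower. The part of these markers in the miR-29 values was not tested. Of the hepatocyte markers limma called 8 of 8 lower in the deposited scaling (median -1.26, beside 46.7% of all kept miRNAs called lower). EdgeR called 2 of 8 lower (median -0.41, beside 14.1%), and limma with the positive controls set equal 1 of 8 (median -0.24, beside 3.62%). The strongest were miR-802 (-4.00), miR-101b (-1.89), miR-192 (-1.38) and miR-194 (-1.35), each more negative than miR-29b. The leukocyte markers took 0.990% and 1.24% in normal liver against 1.67% and 1.20% in tumour, the endothelial ones 3.67% and 3.23% against 4.10% and 3.67%, and the erythroid ones 1.10% and 0.912% against 1.82% and 1.64%. The leukocyte sum holds members that moved in opposite directions. Of its 7 markers limma called miR-181a (1.67) higher and miR-142-5p (-2.26) and miR-155 (-1.47) lower in the deposited scaling. Of the 2 endothelial markers it called miR-126-5p (-0.93) lower, and of the 3 erythroid ones 0. EdgeR called 4 leukocyte markers higher and 1 lower, and 1 endothelial and 3 erythroid ones higher, beside 25.7% higher and 14.1% lower.

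Other miRNAs linked to liver fibrosis were called in both directions in the deposited scaling. Of 21 such miRNAs 20 had a probe and 19 were kept, of which limma called 7 higher and 4 lower in the deposited scaling (median 0.14, against -0.90 over all kept miRNAs and -0.74 for miR-29), beside 7.97% of all kept miRNAs called higher and 46.7% lower. EdgeR called 11 higher and 2 lower (median 1.06), beside 25.7% and 14.1%. With the positive controls set equal, limma called 9 higher and 0 lower (median 1.16), beside 15.9% and 3.62%. In the deposited scaling the largest differences were those of miR-200a (3.05), miR-200b (2.59), miR-199a-5p (2.16) and miR-101b (-1.89). MiR-200a and miR-200b are known to repress Zeb1 and Zeb2 and so to keep cells epithelial, and miR-199a-5p is raised when stellate cells are activated. This list overlaps the cell type lists above, so its counts are not a separate observation. Among its calls, miR-200a, miR-200b, miR-199a-5p, miR-199a-3p and miR-125b-5p (higher) and miR-101b and miR-194 (lower) were also counted there.

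The profile of a member over the 4 samples was set against those of the other 135 miRNAs detected in all of them, by the Euclidean distance between log2 values centred on each miRNA's own mean. A common scaling factor cancels in this distance, and no test was made. MiR-29b was nearest to miR-101a (distance 0.10), which read 156 and 158 in normal liver against 89.7 and 60.6 in tumour, and next to miR-30b (0.27), miR-103 (0.30), miR-876-3p (0.30) and miR-181c (0.32). MiR-29a was nearest to miR-30b (0.16), which read 1062 and 1130 in normal liver against 782 and 496 in tumour, then to miR-30e (0.23), miR-103 (0.24), miR-676 (0.27) and miR-19b (0.30). MiR-29c was nearest to miR-140 (0.098), miR-148b (0.11), miR-539 (0.12), let-7a (0.14) and miR-676 (0.19). The members were not each other's nearest neighbours. MiR-29b ranked 9th in likeness to miR-29a (distance 0.38), miR-29c ranked 12th (0.40), and miR-29c ranked 20th in likeness to miR-29b (0.71). With 4 samples, and 2 per group, such an order describes these samples alone.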

How the data were processed

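RNA of 2 samples of normal mouse liver and 2 of liver tumour was measured with the nCounter miRNA Expression Assay, per the labels' protocols. What the authors deposited is a signal per probe: its count times a factor of the sample (2.09, 2.30, 0.395 and 0.905, from the values). For that scaling, software and basis were not given in the sources used here. Dividing by the factor returned counts (100% of scaled values whole within 0.1 count), and after scaling the 100 most abundant miRNAs had 1 geometric mean in all samples (CV 0.000196%). Control probes were unscaled.

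The main test was limma 3.58.1 (R 4.3.3) on log2(value + 1). P-values were adjusted by Benjamini-Hochberg over 276 mouse miRNAs, those whose mean log2 value was above 3.93, which is 2 SD over the mean of the scaled negative controls. Other pseudocounts hardly moved the miR-29 differences but changed their calls. Alternatives were other scalings, filters, pseudocounts, omitted samples, edgeR 4.0.16 and DESeq2 1.42.0 on recovered counts. The scripts were tested on simulated data. Members, lists and named miRNAs (the members, up to 4 per list with the largest differences for the lists described, and 5 nearest profiles each) were chosen with earlier results of these data known. The chi-square per degree of freedom between replicates was 3.24 for the normal livers and 34.1 for the tumours, more than sampling noise. Such spread cannot show whether the replicates came from different animals or differ for technical reasons. All samples were counted separately.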

Additional observations from a re-analysis of the deposited data

How the results depend on the processing

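The scaling decided the sign of miR-29a and miR-29c. Their log2 differences turned to 0.075 and 0.20 under equal medians, 0.28 and 0.41 under scaling to positive controls, 0.14 and 0.24 with edgeR and 0.15 and 0.24 with DESeq2. They passed the test in limma, at -0.74 and -0.62, over the 136 miRNAs detected in all 4 samples and with a variance trend, and with pseudocounts of 10 (-0.74 and -0.61) and 30 (-0.73 and -0.60); with these 4 settings 3 members were called lower. MiR-29b kept its direction but lost its call with equal medians (-0.27), the positive controls set equal (-0.060), equal totals (-0.62), the messenger RNA probes set equal (-1.16), quantile normalization (-0.81), edgeR (-0.18), DESeq2 (-0.17) and background subtracted (-1.08), and 0 members were called there (at most 1 at an unadjusted p under 0.05). The scalings computed anew over the 136 detected miRNAs were chosen after seeing the data. There miR-29b was -1.0 and the only member called under equal medians (adjusted p = 0.0211), and it was -0.81 with quantile normalization, -0.69 in edgeR and -0.65 in DESeq2, with 0 members called in these 3 (1 at an unadjusted p under 0.05 in each).

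Over all kept miRNAs, 129 were called lower and 22 higher. The counts were 50 and 59 under equal medians, 10 and 44 under scaling to positive controls, 74 and 34 with equal totals, 95 and 11 with the messenger RNA probes set equal, 13 and 18 with quantile normalization, 39 and 71 with edgeR, 13 and 59 with DESeq2 and 5 and 13 with background subtracted. They were 276 and 16 with no filter and 50 and 17 over detected miRNAs. Over those miRNAs they were 46 and 18 with equal medians, 21 and 24 with quantile normalization, 31 and 29 in edgeR and 27 and 27 in DESeq2.

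With each sample left out in turn, miR-29a was -0.98 to -0.50, miR-29b -1.43 to -0.73 and miR-29c -0.64 to -0.59. Between 0 and 2 members, 47 to 127 kept miRNAs lower and 7 to 18 higher were then called. The 2 members were miR-29a and miR-29b, without liver tumour replicate 1. MiR-29c relative to miR-29a ranged from -0.14 (without liver tumour replicate 2) to 0.39, miR-29a relative to miR-122 from -0.27 to 0.60 and miR-29b relative to miR-122 from -0.73 to 0.36. The family's share of counts was 5.35% and 5.38% in normal liver against 5.14% and 3.32% in tumour after background subtraction, and 7.89%, 8.08%, 6.52% and 4.83% in the 4 samples without miR-720 and miR-122. The cause of these shifts was not tested. The groups share replicate numbers, but the labels do not pair the samples, and same-numbered samples deviated with a correlation of 0.042. With the replicate number as a block, miR-29b stayed called (-1.08, limma adjusted p = 0.011), beside 51.8% of kept miRNAs called lower. The SE was the same for all 3 members in that fit (0.38), so this p-value does not reflect the spread of miR-29b itself. No call on a member or a ratio changed with the block.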
